A study of Mus musculus with 12 samples.

Results

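The integrated stress response, with the serine, one-carbon and amino acid transport genes that belong to it, was followed through 31 named genes on 12 expression arrays of mouse macrophages. The genes were chosen by name, with earlier results of these data known. A probe stood for a gene where its transcript identifier belonged to that gene. Of the 31 genes, 30 had a matched probe and 29 gave signal well enough above background to be tested, among 20862 genes tested on the whole array. Pycr1 had no matched probe. Stc2 had a single probe, which lay above background on 1 of 12 arrays and was not tested.

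Macrophages came from the peritoneum of wild-type C57BL/6 mice aged 8 weeks, were kept by adherence and stood overnight without serum before treatment. They formed 3 groups of 4 arrays. The control received vehicle, and both treated groups received the cytokine IL4 at 10 ng/ml. The third group also received 50 µM of emodin, an anthraquinone found in medicinal plants. In each group, numbers 1 and 2 were from female mice and numbers 3 and 4 from male mice. The title of the series asks how emodin acts on the alternative activation of macrophages, the state that IL4 brings about. No group received emodin without IL4. The labels give the treatment as 6 h in one field and as overnight in another, and they leave unsaid whether mice were pooled. The p-values therefore cover the spread among these arrays, which may in part be technical.

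All 4 emodin arrays lay on a slide of their own, so emodin and slide cannot be told apart. Control and IL4 arrays shared the other slide in different rows, so IL4 and slide row cannot be told apart either. Blood leukocytes are named in the series' design text, while the sample labels name peritoneal macrophages. Of 8 matched macrophage markers, 8 lay above background on all 12 arrays, among them Adgre1 and Csf1r. Of 7 matched neutrophil markers, 4 lay above background on all 12 arrays and Ngp on none. Summed levels of marker lists, in units of each array's 75th percentile, moved with the groups. The neutrophil sum ran from 26.7 to 39.8 on control arrays, 19.2 to 30.3 on IL4 arrays and 36.6 to 59.0 on emodin arrays. The B cell sum ran from 1.03 to 2.37, from 1.15 to 2.16 and from 0.354 to 0.548 in the same order, and its marker Pax5 lay above background on 0 of 12 arrays. The large peritoneal macrophage sum ran from 9.84 to 10.9, from 9.79 to 11.9 and from 5.85 to 6.79. The fibroblast sum varied widely within every group, from 18.9 to 83.3, from 21.3 to 108 and from 26.7 to 119. Other sums separated control from IL4 arrays without overlap. The macrophage sum ran from 654 to 667 on control arrays and 732 to 828 on IL4 arrays, the T cell sum from 4.43 to 4.84 and 1.93 to 3.18, the NK cell sum from 0.107 to 0.137 and 0.0411 to 0.0807, and the eosinophil sum from 1.18 to 1.31 and 0.540 to 0.823. The T cell markers Cd3d and Cd3g, the NK cell marker Ncr1 and the eosinophil markers Prg2 and Epx lay above background on 0 of 12 arrays. The part of these markers in the results was not tested. In RNA from whole cultures, fewer cells of a type and less RNA per cell cannot be told apart.

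Cells short of amino acids, loaded with misfolded protein, lacking heme or sensing double-stranded RNA phosphorylate the initiation factor eIF2, which slows protein synthesis overall while the mRNA of the transcription factor ATF4 is translated more. ATF4, with C/EBP partners, then raises genes for amino acid import, for the synthesis of serine, glycine, asparagine and proline, and for the folate cycle that carries one-carbon units, along with factors that end or extend the response. Because ATF4 itself is controlled largely through translation, its mRNA level on an array does not report ATF4 protein. In macrophages, serine and one-carbon metabolism, amino acid transport and the cystine-glutamate exchanger are known to be regulated during activation.

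ATF4 binds DNA with C/EBP proteins at a composite element, the C/EBP-ATF response element, whose core was searched here as TGATGNAA on both strands in RefSeq promoter windows of build GRCm38.p6. Each window runs from 250 bases before the transcript start to 50 bases after it, and 28 of the 31 genes have a window. The core occurred in 9 of these 28 genes (Asns, Atf3, Chac1, Nupr1, Pycr1, Slc1a4, Slc7a11, Trib3 and Vldlr). By window, it stood in 27.3% of 33 windows of these genes and in 3.91% of all 32544 windows. The genes were chosen by name as belonging to the ATF4 response, so this contrast describes the list and is no test. The palindrome TTCNNNNGAA, the form bound by the IL4-activated factor STAT6, was found in 6.06% of the genes' windows (Chac1 and Shmt2) and in 6.98% of all windows. The E-box CACGTG was found in 6.06% (Aldh18a1 and Nupr1) and in 7.17% of all windows. No match of one motif overlapped a match of another in these windows. A match is a description of letters, and its use by a factor in these cells was not measured.

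The windows of a few genes with a core are printed because their genes span the responses described below: Atf3, Chac1 and Trib3 were called higher with IL4, Slc7a11 was called lower with emodin and IL4 than with IL4, and Asns was called in neither. Capitals mark the core or its reverse complement, and each window reads along the gene's strand. The windows lie at chr1:191183284-191183583 (Atf3, minus strand), chr2:119350992-119351291 (Chac1, plus strand), chr2:152344011-152344310 (Trib3, minus strand), chr3:50443564-50443863 (Slc7a11, minus strand) and chr6:7693160-7693459 (Asns, minus strand).
Atf3: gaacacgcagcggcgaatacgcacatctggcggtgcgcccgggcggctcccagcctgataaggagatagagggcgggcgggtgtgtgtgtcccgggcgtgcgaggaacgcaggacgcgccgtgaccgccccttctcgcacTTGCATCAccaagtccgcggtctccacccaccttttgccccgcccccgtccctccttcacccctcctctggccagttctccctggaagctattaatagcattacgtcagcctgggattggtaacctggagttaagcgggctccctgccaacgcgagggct
Chac1: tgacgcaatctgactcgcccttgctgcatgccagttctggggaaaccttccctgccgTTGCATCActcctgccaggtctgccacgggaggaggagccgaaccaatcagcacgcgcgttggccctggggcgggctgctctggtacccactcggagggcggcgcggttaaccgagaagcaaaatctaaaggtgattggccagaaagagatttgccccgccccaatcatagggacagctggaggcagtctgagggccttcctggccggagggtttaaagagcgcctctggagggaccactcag
Trib3: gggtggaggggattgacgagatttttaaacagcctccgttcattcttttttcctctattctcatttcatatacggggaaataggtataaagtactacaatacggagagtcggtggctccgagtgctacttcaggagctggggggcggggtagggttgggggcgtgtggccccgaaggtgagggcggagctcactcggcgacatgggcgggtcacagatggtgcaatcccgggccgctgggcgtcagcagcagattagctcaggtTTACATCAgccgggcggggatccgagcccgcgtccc
Slc7a11: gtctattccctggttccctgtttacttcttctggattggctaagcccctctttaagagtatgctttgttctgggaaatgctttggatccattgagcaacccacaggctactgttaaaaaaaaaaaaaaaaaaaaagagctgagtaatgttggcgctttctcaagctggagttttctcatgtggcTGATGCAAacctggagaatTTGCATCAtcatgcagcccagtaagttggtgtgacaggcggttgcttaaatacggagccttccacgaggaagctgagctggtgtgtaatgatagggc
Asns: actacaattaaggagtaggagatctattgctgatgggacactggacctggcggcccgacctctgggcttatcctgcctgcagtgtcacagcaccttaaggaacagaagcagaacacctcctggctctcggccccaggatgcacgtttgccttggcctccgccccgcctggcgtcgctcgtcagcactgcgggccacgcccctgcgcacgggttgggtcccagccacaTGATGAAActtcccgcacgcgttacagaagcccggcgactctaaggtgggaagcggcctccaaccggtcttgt
The core began 110 bases before the start in Atf3, 193 in Chac1 and 23 in Asns, and at base 15 of the transcript in Trib3. Slc7a11 held 2 cores in opposite orientation, which began 66 and 47 bases before the start.

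Levels are given as log2 intensity minus that of the array's 75th percentile, and "called" means an adjusted p below 0.05, with the adjustment made over all genes tested. IL4 raised most of the group: the level was called higher than control for 19 of the 29 genes (65.5%) and lower for 0, against 8.98% of all genes called higher and 8.56% called lower. At an unadjusted p below 0.05 in the same limma fit, 20 were higher and 0 lower. Because the list was chosen with earlier results of these data known, its share beside that of all genes is a description. The median log2 difference over the 29 genes was 0.56, beside -0.03 over all genes tested, and single genes ranged from -0.22 to 1.15. The rises were moderate: 2 of them reached 2-fold. In 18 of the 19, the 4 IL4 arrays lay above all 4 control arrays, and Psat1 was the exception. The same count was not made over all called genes, so it does not set these genes apart.

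Emodin with IL4, set against IL4, split the group. Calls numbered 8 higher (27.6% of the 29) and 12 lower (41.4%), against 39.4% of all genes called higher and 26.5% called lower. The median log2 difference was -0.04, beside 0.17 over all genes, but single genes ranged from -2.14 to 2.05, and 2 rises and 6 falls reached 2-fold. Against control, 15 genes (51.7%) were higher and 6 (20.7%) lower with emodin and IL4, where 37.3% of all genes were called higher and 25.6% lower. The median in that comparison was 0.57, beside 0.15 over all genes. The comparisons share arrays, so they are given side by side and not as separate evidence.

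**Figure D1:**
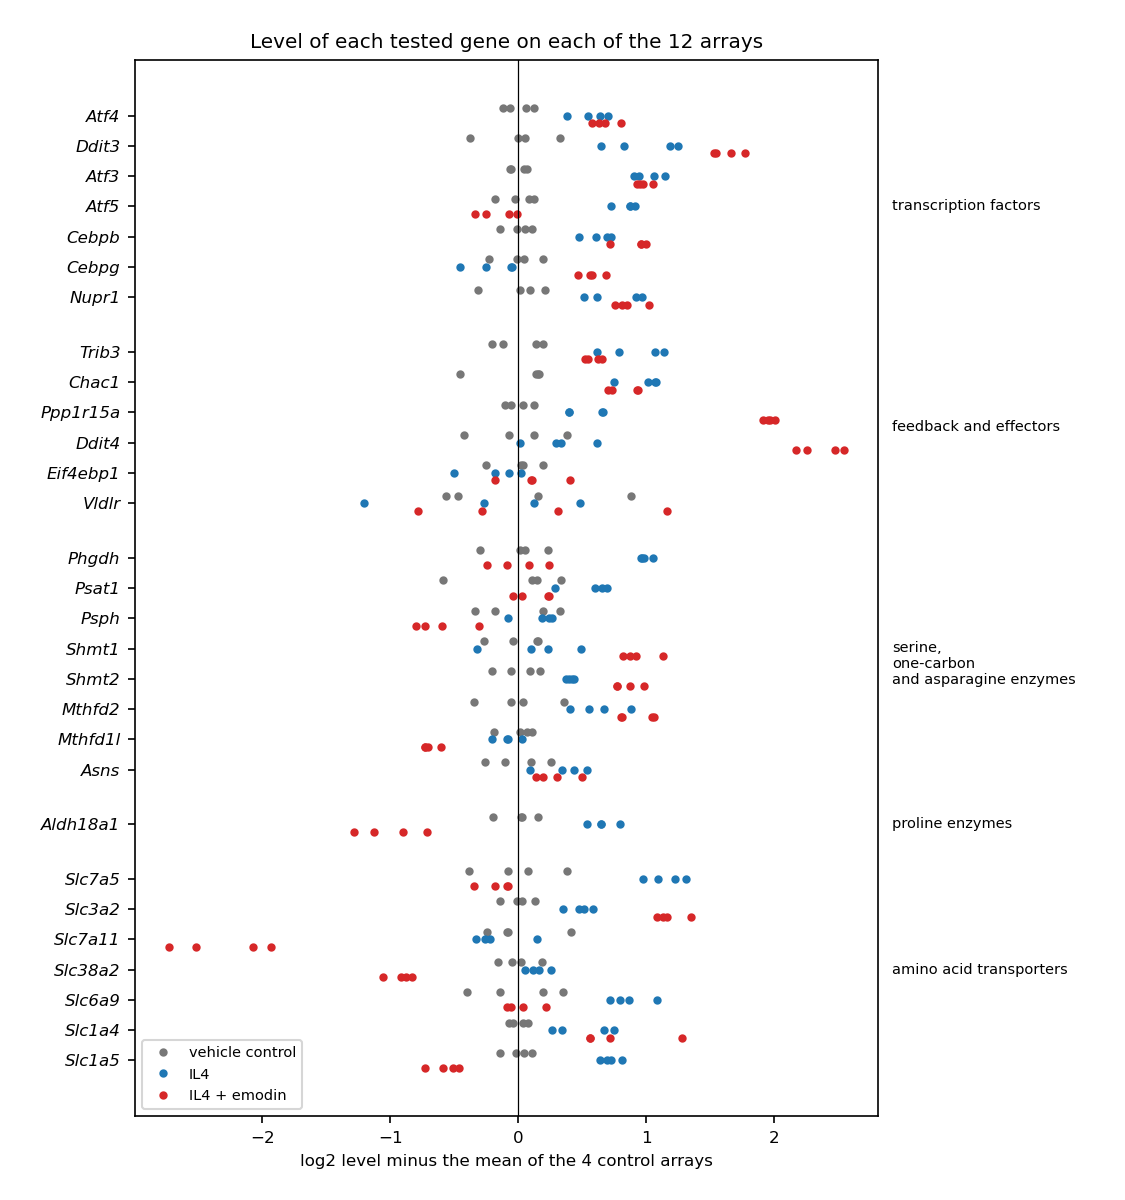
Log2 level of each of the 29 tested genes on each of the 12 arrays, as the difference from the mean of the 4 control arrays (x axis), with genes grouped by role (y axis); grey points are vehicle control, blue IL4 and red IL4 with emodin. Blue points lie to the right of the grey points for most genes, while red points lie far to the right for Ddit4 and Ppp1r15a and far to the left for Slc7a11.

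How the emodin arrays are scaled moves every emodin difference. The 75th percentile of intensity was 488 ± 31.4 on emodin arrays and 776 ± 24.5 on IL4 arrays (SD, n = 4 each; exact permutation test, two-sided, p = 0.0286, the smallest that 4 against 4 arrays allow). Scaling on the 7 spike-in control probes moved the median of all genes for emodin with IL4 against IL4 from 0.17 to -0.92, and quantile scaling moved it to 0.02. With spike-in scaling, 2 of the 29 genes were higher (Ddit4 and Ppp1r15a) and 25 lower. Over all 20862 genes, that scaling called 727 higher and 16853 lower. All 12 genes called lower with emodin by the 75th percentile were also called lower under both other scalings. Spike-in scaling moved the differences by -1.08, so it could not turn a fall into a rise and is no check on the falls. Of the 8 called higher, quantile scaling kept 6 and spike-in scaling kept 2. Quantile scaling also called Atf3, Atf4 and Asns lower, which the 75th percentile did not. Over all 20862 genes it called 6134 higher and 6451 lower, where the 75th percentile called 8212 and 5538. The shares of all genes given for emodin thus hold for scaling on the 75th percentile. IL4 against control depended less on the scaling: spike-in scaling kept all 19 calls and quantile scaling kept 18, losing Slc1a4. Emodin differences below are therefore relative to the array's 75th percentile. The value with spike-in scaling stands beside each named gene called higher with emodin than with IL4.

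**Figure D2:**
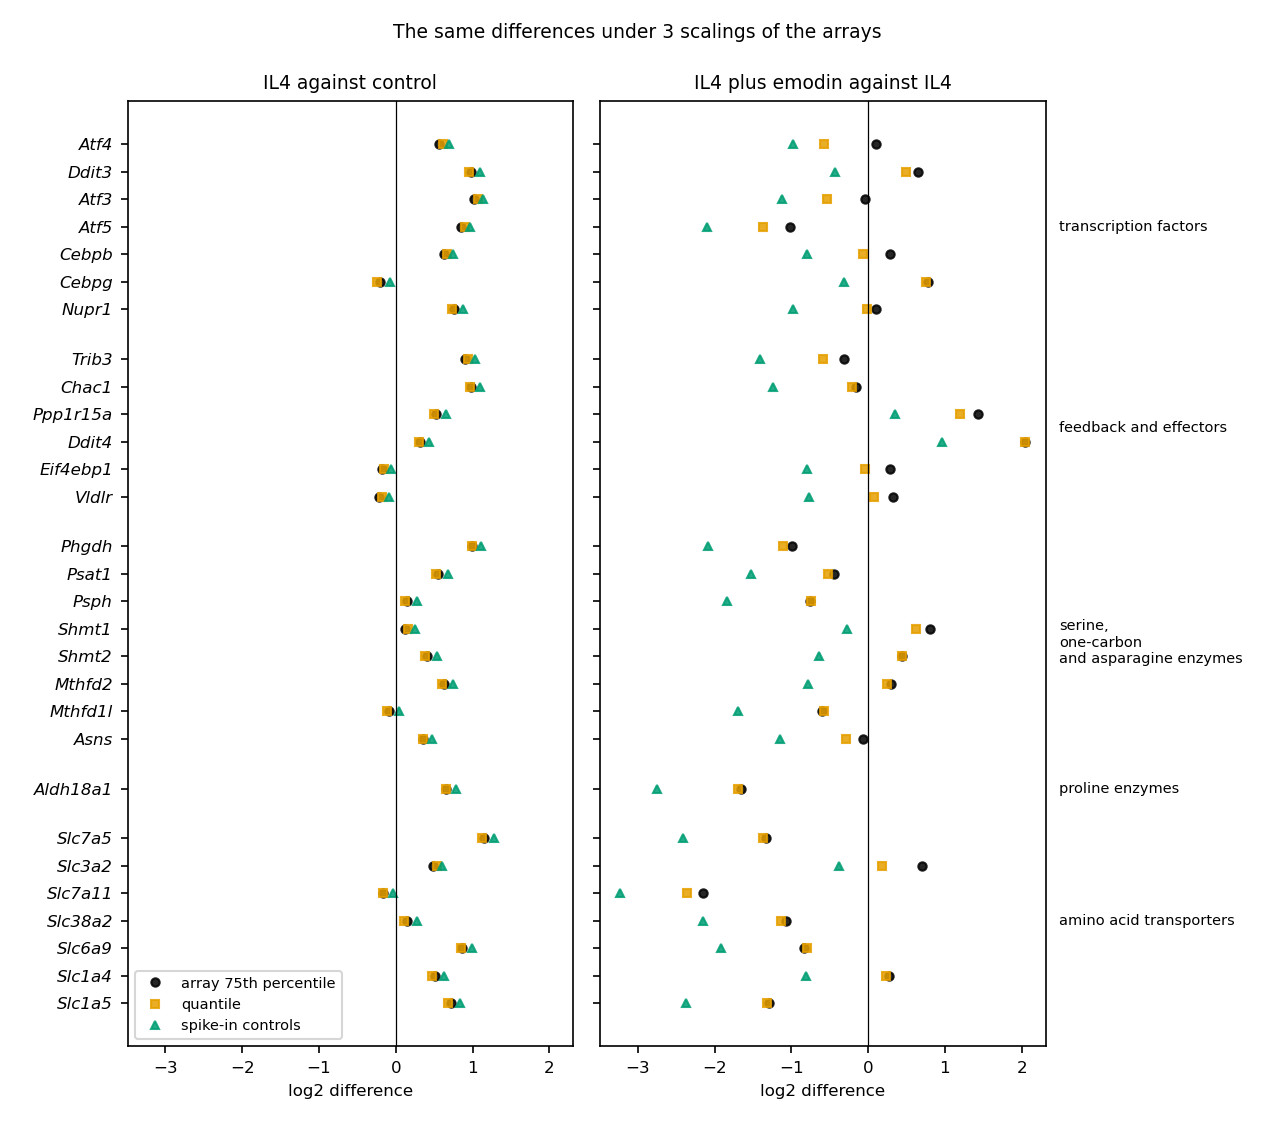
Log2 differences of the 29 genes for IL4 against control (left) and for IL4 with emodin against IL4 (right), under scaling on the array 75th percentile (black circles), quantile scaling (orange squares) and spike-in scaling (green triangles). The 3 symbols nearly coincide at left, while at right the spike-in values lie further left for all genes and the rises in Ddit4 and Ppp1r15a keep their sign under all 3.

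The transcription factors of the response rose with IL4: 6 of 7 were called higher, where 8.98% of all genes were. Their median log2 difference was 0.75, beside -0.03 over all genes. Atf4 read 8.33, 8.51, 8.45 and 8.27 on control arrays 1 to 4, 9.03, 9.09, 8.94 and 8.77 with IL4, and 8.97, 9.20, 9.02 and 9.07 with emodin and IL4. Both treated groups lay above control without overlap and overlapped each other. For emodin with IL4 against control, the difference of 0.67 became 0.04 with quantile and -0.29 with spike-in scaling. Atf4 rose by 0.57 ± 0.09 with IL4 (SE, n = 4 per group; adjusted p = 0.000976), and emodin with IL4 differed from IL4 by 0.11 ± 0.09 (adjusted p = 0.321; -0.58 with quantile and -0.98 with spike-in scaling). A second Atf4 probe also rose with IL4 (0.35 ± 0.11, adjusted p = 0.0461 over all kept probes) but was called higher again with emodin (0.31, adjusted p = 0.0259; -0.78 with spike-in scaling), where the first was not.

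Ddit3 encodes CHOP, the C/EBP-related factor linked to cell death under lasting stress. Its levels were 3.78, 4.05, 3.72 and 3.35 in control, 4.98, 4.91, 4.56 and 4.37 with IL4, and 5.28, 5.26, 5.50 and 5.39 with emodin and IL4. The 3 groups formed separate steps with no overlap. Ddit3 rose by 0.98 ± 0.16 with IL4 (adjusted p = 0.00121). Emodin with IL4 was higher by a further 0.65 ± 0.16 (adjusted p = 0.00366, and -0.43 with spike-in scaling). That placed Ddit3 3.09-fold above control (1.63 ± 0.16, adjusted p = 3.81e-06, and 0.67 and still called with spike-in scaling).

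Atf3 encodes a stress-induced factor that acts beside ATF4 and limits inflammatory genes. It read 6.67, 6.56, 6.56 and 6.69 in control, 7.76, 7.68, 7.52 and 7.56 with IL4, and 7.57, 7.67, 7.55 and 7.59 with emodin and IL4. Every treated array was above every control array, and the 2 treated groups overlapped. For emodin with IL4 against control, the difference of 0.98 became 0.02 and was not called with spike-in scaling. The rise with IL4 was 1.01 ± 0.07 (2.02-fold, adjusted p = 2.14e-06), and emodin with IL4 differed from IL4 by -0.04 ± 0.07 (adjusted p = 0.686; -0.53 with quantile scaling, which called it lower).

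Atf5, a relative of ATF4 tied to the mitochondrial stress response, moved up and back. It read 6.38, 6.24, 6.35 and 6.08 in control, 7.14, 7.18, 7.14 and 6.99 with IL4, and 6.02, 6.19, 6.26 and 5.93 with emodin and IL4. The IL4 arrays stood above both other groups, which overlapped. Atf5 rose by 0.85 ± 0.10 with IL4 (adjusted p = 7.01e-05) and was 2.02-fold lower with emodin than with IL4 alone (-1.01 ± 0.10, adjusted p = 2.44e-06).

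The C/EBP partners differed from each other. Cebpb rose by 0.63 ± 0.09 with IL4 (adjusted p = 0.000461), and emodin with IL4 was higher than IL4 by 0.28 ± 0.09 (adjusted p = 0.0151), a difference of -0.07 with quantile and -0.80 with spike-in scaling. Cebpg, a dimer partner of ATF4, did not pass the test with IL4 (-0.20 ± 0.11, adjusted p = 0.257) but was higher with emodin than with IL4 by 0.78 ± 0.11 (adjusted p = 7.82e-05; -0.31 with spike-in scaling). It stood at 3.20 ± 0.09 on emodin arrays, 2.63 ± 0.17 in control and 2.43 ± 0.19 with IL4 (SD, n = 4), and no emodin array reached down to the other groups. Nupr1, a small chromatin-associated stress protein, rose by 0.75 ± 0.13 with IL4 (adjusted p = 0.00196) and differed by 0.11 with emodin (adjusted p = 0.498; -0.98 with spike-in scaling).

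Feedback factors and effectors held the strongest rises with emodin. Ppp1r15a encodes GADD34, the phosphatase subunit that dephosphorylates eIF2 and ends the response. It read 4.58, 4.49, 4.40 and 4.35 in control, 5.12, 5.11, 4.85 and 4.85 with IL4, and 6.37, 6.46, 6.42 and 6.40 with emodin and IL4. The groups did not overlap, and the SD of the 4 emodin arrays was 0.04. Ppp1r15a rose by 0.53 ± 0.09 with IL4 (adjusted p = 0.00111), and emodin with IL4 was 2.70-fold above IL4 (1.43 ± 0.09, adjusted p = 6.24e-08; 0.35 with spike-in scaling) and 3.88-fold above control (1.96 ± 0.09, adjusted p = 6.04e-09; 1.00 with spike-in scaling).

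Ddit4 encodes REDD1, a stress-induced inhibitor of the growth regulator mTORC1. Its levels were -0.01, 0.54, 0.80 and 0.35 in control, 0.43, 0.75, 1.04 and 0.71 with IL4, and 2.67, 2.59, 2.96 and 2.89 with emodin and IL4. Control and IL4 arrays overlapped, and all emodin arrays were far above them. The IL4 difference was not called (0.31 ± 0.17, adjusted p = 0.254). Emodin with IL4 was 4.13-fold above IL4 (2.05 ± 0.17, adjusted p = 9.40e-07; 0.96 with spike-in scaling), the largest rise among the 29 genes in this comparison.

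Trib3, a pseudokinase that binds ATF4 and CHOP, and Chac1, which degrades glutathione, rose with IL4 by 0.90 ± 0.13 (adjusted p = 0.000375) and 0.97 ± 0.14 (adjusted p = 0.000467). Trib3 was lower with emodin than with IL4 by a small margin (-0.32 ± 0.13, adjusted p = 0.0430), a call lost without IL4 array 1 or 2 or without any of the 4 emodin arrays (adjusted p from 0.0111 to 0.127 over the fits that left out 1 array), while Chac1 was not called (-0.15 ± 0.14, adjusted p = 0.353). Eif4ebp1, the repressor of cap-dependent translation, was not called in any of the 3 comparisons (-0.18, 0.29 and 0.11 for IL4 against control, emodin with IL4 against IL4, and emodin with IL4 against control). Without emodin array 1 the second of these was called (adjusted p = 0.0374). Vldlr, a lipoprotein receptor, was dim and varied by up to 0.83 (SD) within a group, and its differences of -0.22, 0.32 and 0.10 were not called. It lay above background on 3 of 4 emodin arrays, and its other probe on 0 of 12 arrays.

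**Figure D3:**
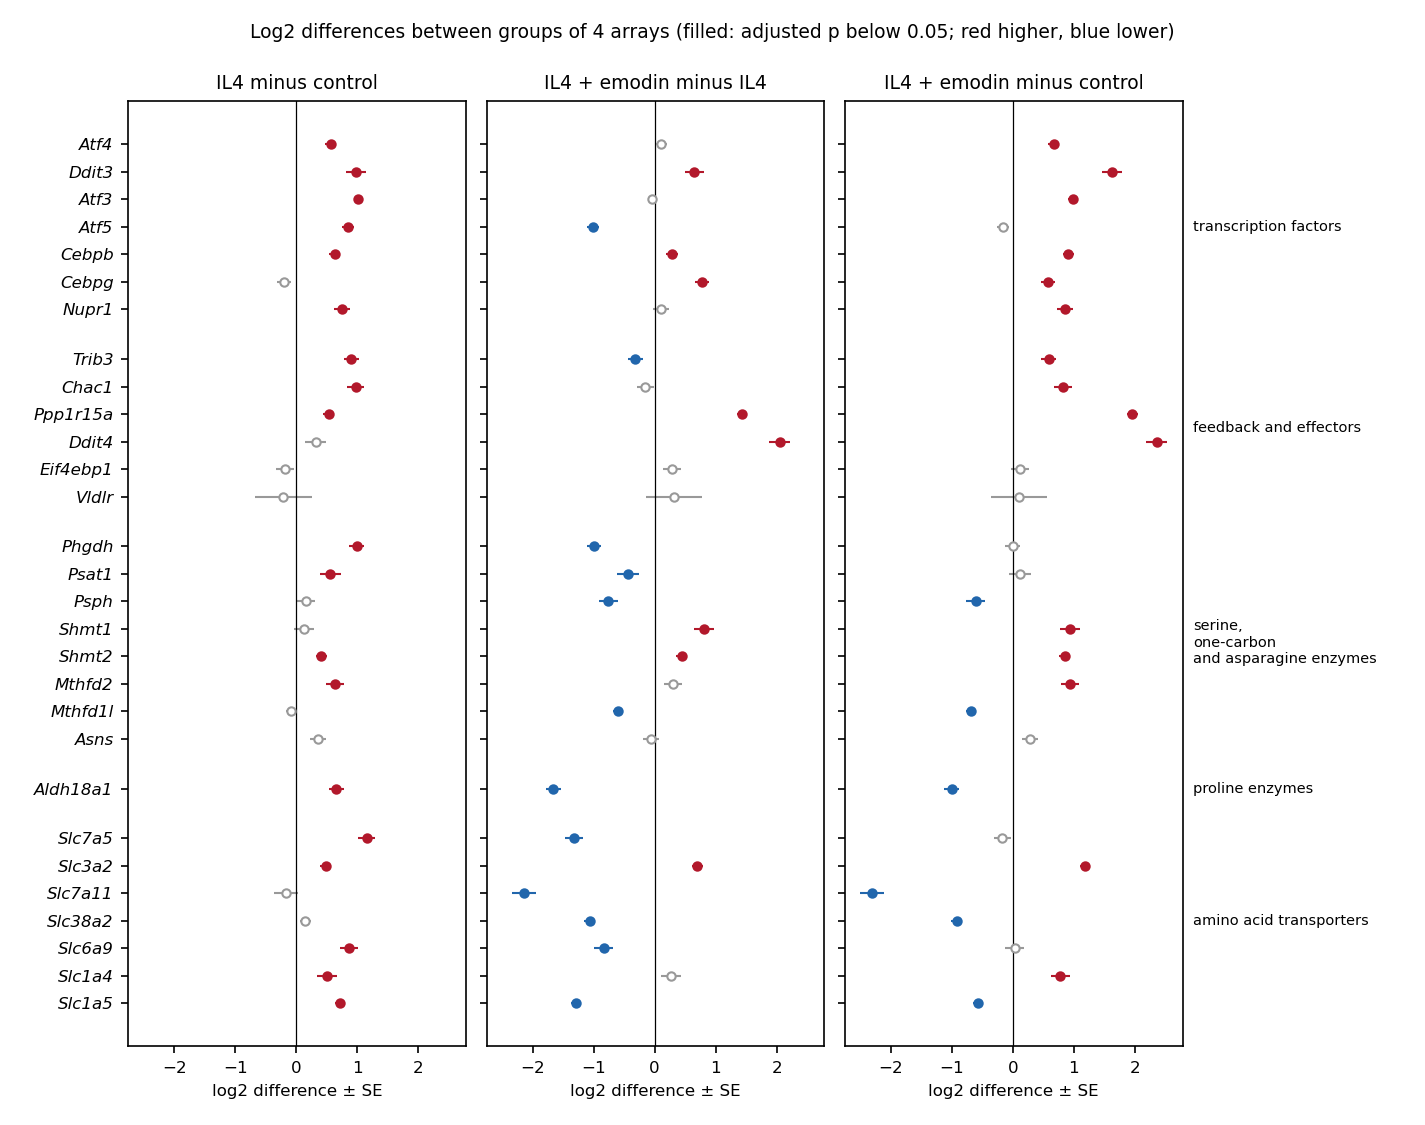
Log2 difference with its standard error for each of the 29 genes (4 arrays per group), for IL4 minus control, IL4 with emodin minus IL4, and IL4 with emodin minus control; filled points were called, red higher and blue lower, and open grey points were not called. The left panel holds 19 filled points, all higher, and the middle panel 8 higher and 12 lower, with Ddit4 at 2.05 and Slc7a11 at -2.14 at its ends.

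The serine synthesis pathway takes a glycolytic intermediate through PHGDH, PSAT1 and PSPH in turn. Of these enzymes, Phgdh, which starts the pathway, rose with IL4 by 0.99 ± 0.12 (adjusted p = 0.000142), from 4.10 ± 0.22 to 5.09 ± 0.04 (SD, n = 4). With emodin and IL4 it stood at 4.09 ± 0.21, lower than IL4 by 1.99-fold (-0.99 ± 0.12, adjusted p = 2.09e-05). The IL4 arrays, from 5.06 to 5.15, were above all arrays of the other groups, and a second Phgdh probe gave 0.99 and -0.91. Psat1 changed in the same directions with less margin, by 0.56 ± 0.18 with IL4 (adjusted p = 0.0495) and by -0.44 ± 0.18 with emodin (adjusted p = 0.0444), and each call was fragile. Of the 12 fits that left out 1 array, 2 kept the IL4 call (those without control 3 or IL4 4; adjusted p from 0.0295 to 0.117) and 3 the emodin call (those without control 3, control 4 or IL4 4; 0.00494 to 0.104). A second Psat1 probe differed by -0.28 with emodin and was not called (adjusted p = 0.212). Psph, the last enzyme, was not called with IL4 (0.15 ± 0.16, adjusted p = 0.571) and was lower with emodin (-0.76 ± 0.16, adjusted p = 0.00110).

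The enzymes that pass serine carbon into folate did not move as a block. Shmt2 and Mthfd2, mitochondrial enzymes, rose with IL4 by 0.41 ± 0.09 (adjusted p = 0.00765) and 0.63 ± 0.15 (adjusted p = 0.0112). Shmt2 was higher again with emodin by 0.44 ± 0.09 (adjusted p = 0.000911; -0.64 with spike-in scaling), and its 3 groups did not overlap (1.71 to 2.08 in control, 2.29 to 2.35 with IL4, 2.68 to 2.90 with emodin and IL4). Mthfd2 differed by 0.30 ± 0.15 with emodin and was not called (adjusted p = 0.0886, but 0.0444 without IL4 array 1; -0.78 with spike-in scaling). Shmt1, the cytosolic counterpart of Shmt2, was not called with IL4 (0.13 ± 0.16, adjusted p = 0.650) and was higher with emodin by 0.81 ± 0.16 (adjusted p = 0.000774; -0.28 with spike-in scaling). Mthfd1l, which makes formate in mitochondria, went the other way: it was not called with IL4 (-0.09) and was lower with emodin (-0.60 ± 0.08, adjusted p = 4.93e-05), and a second probe gave -0.73. Asns, asparagine synthetase, was not called with IL4 (0.35 ± 0.13, adjusted p = 0.0950), but it passed in a fit with a replicate block (adjusted p = 0.0363). Emodin with IL4 differed from IL4 by -0.07 ± 0.13 for Asns (adjusted p = 0.672; called lower under both other scalings).

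Proline synthesis was represented by Aldh18a1, whose product makes the first committed intermediate from glutamate. It read 0.03, 0.03, 0.16 and -0.19 in control, 0.54, 0.65, 0.66 and 0.81 with IL4, and -1.11, -1.27, -0.71 and -0.90 with emodin and IL4. The IL4 arrays were the highest, the emodin arrays the lowest, and no groups overlapped. Aldh18a1 rose by 0.66 ± 0.12 with IL4 (adjusted p = 0.00294) and was 3.16-fold lower with emodin (-1.66 ± 0.12, adjusted p = 3.26e-07), which also placed it 2.01-fold below control.

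Of the amino acid transporters, 5 of 7 were called higher with IL4 (median 0.51), where 8.98% of all genes were. With emodin and IL4, 5 of 7 were lower than with IL4 and 1 higher (median -1.07), where 26.5% of all genes were lower and 39.4% higher. The members of both counts were not the same: Slc7a5, Slc6a9 and Slc1a5 were higher with IL4 and then lower with emodin.

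SLC3A2 (CD98 heavy chain) pairs with light chains such as SLC7A5, which imports leucine and other large neutral amino acids, and SLC7A11, which imports cystine in exchange for glutamate. Slc3a2 read 6.76, 6.66, 6.61 and 6.48 in control, 7.21, 7.14, 6.98 and 7.10 with IL4, and 7.76, 7.79, 7.71 and 7.97 with emodin and IL4. Its groups rose in 2 steps without overlap. The rise was 0.48 ± 0.09 with IL4 (adjusted p = 0.00222), and emodin with IL4 was 1.62-fold above IL4 (0.70 ± 0.09, adjusted p = 2.26e-05), a difference of 0.18 with quantile scaling, which did not call it, and -0.39 with spike-in scaling. Against control it was 2.27-fold higher (1.18 ± 0.09, adjusted p = 3.28e-07), but the difference was 0.22 and not called with spike-in scaling (adjusted p = 0.148).

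Slc7a5 read -0.51, -0.97, -0.81 and -1.27 in control, 0.42, 0.21, 0.09 and 0.34 with IL4, and -0.97, -1.24, -1.07 and -0.97 with emodin and IL4. The IL4 arrays were above both other groups, which overlapped. Slc7a5 rose 2.22-fold with IL4 (1.15 ± 0.14, adjusted p = 0.000153), the largest rise of the 29 genes in that comparison, and was 2.50-fold lower with emodin (-1.32 ± 0.14, adjusted p = 7.60e-06). A second Slc7a5 probe, matched to the same transcript, gave a different result for emodin. It read -2.44, -2.67, -2.55 and -2.63 in control, -1.68, -1.40, -1.53 and -1.88 with IL4, and -1.46, -1.97, -1.64 and -1.60 with emodin and IL4. Its IL4 and emodin arrays overlapped and both stood above control. The second probe rose by 0.95 ± 0.13 with IL4 and differed by -0.04 ± 0.13 with emodin (adjusted p = 0.770 over all kept probes), so the rise with IL4 was seen by both probes and the fall with emodin by 1 of them. The cause of the disagreement was not tested.

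Among the 29 genes, Slc7a11 had the lowest fitted difference with emodin, on a probe above background on 2 of 4 emodin arrays. Its levels were -0.91, -1.40, -1.39 and -1.56 in control, -1.17, -1.58, -1.64 and -1.54 with IL4, and -4.04, -3.24, -3.39 and -3.83 with emodin and IL4. Control and IL4 overlapped, and the emodin arrays lay far below both. IL4 alone gave -0.17 ± 0.19 (adjusted p = 0.619), and emodin with IL4 was 4.42-fold lower than IL4 (-2.14 ± 0.19, adjusted p = 1.61e-06). This fold includes 2 emodin arrays that were not well above background.

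**Figure D4:**
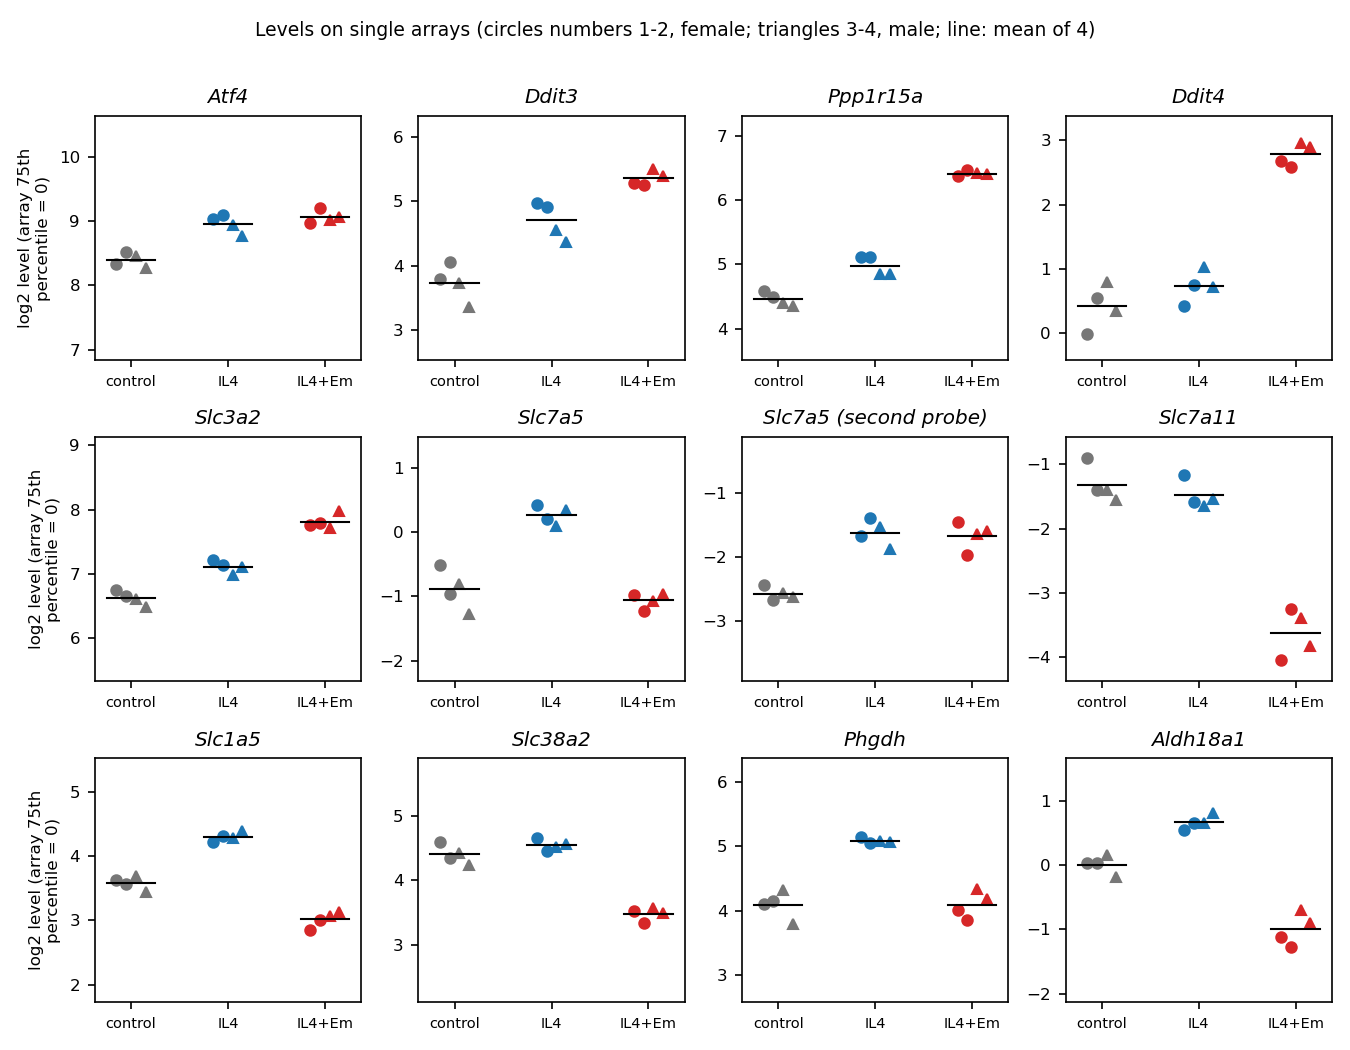
Log2 levels on single arrays (array 75th percentile at 0, y axes of equal span) for 11 genes in vehicle control, IL4 and IL4 with emodin (IL4+Em); circles are numbers 1 and 2, from female mice, triangles numbers 3 and 4, from male mice, and lines mark the mean of 4 arrays. The 2 probes of Slc7a5 both step up with IL4, and only the first falls back with emodin, while Slc3a2, Ddit3 and Ppp1r15a step up in both treated groups.

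Slc1a5 and Slc38a2, carriers of glutamine and small neutral amino acids, were both lower with emodin. Slc1a5 encodes ASCT2, a glutamine exchanger. It read 3.63, 3.57, 3.69 and 3.44 in control, 4.22, 4.30, 4.28 and 4.39 with IL4, and 2.85, 3.00, 3.07 and 3.12 with emodin and IL4. No groups overlapped, with IL4 the highest and emodin the lowest. It rose by 0.72 ± 0.08 with IL4 (adjusted p = 7.94e-05) and was 2.44-fold lower with emodin (-1.29 ± 0.08, adjusted p = 9.68e-08), and a second probe gave 0.74 and -1.27.

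Slc38a2 encodes SNAT2, a sodium-coupled carrier that is induced by amino acid shortage. It read 4.59, 4.35, 4.42 and 4.24 in control, 4.66, 4.46, 4.52 and 4.56 with IL4, and 3.52, 3.34, 3.58 and 3.49 with emodin and IL4. The emodin arrays were below all others, which overlapped. IL4 gave 0.15 ± 0.09 (adjusted p = 0.305), and emodin with IL4 was 2.09-fold lower than IL4 (-1.07 ± 0.09, adjusted p = 8.70e-07).

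Slc6a9, the glycine transporter GLYT1, rose by 0.86 ± 0.15 with IL4 (adjusted p = 0.00192) and was lower with emodin (-0.84 ± 0.15, adjusted p = 0.000447), and a second probe gave 0.92 and -0.97. Slc1a4 encodes ASCT1, a carrier of serine and alanine. It was just past the threshold with IL4 (0.51 ± 0.16, adjusted p = 0.0495), and this call was lost in a fit with a replicate block (adjusted p = 0.0561) and in 9 of the 12 fits that left out 1 array (all but those without IL4 2, emodin 2 or emodin 3; adjusted p from 0.00925 to 0.134). With emodin it differed by 0.27 ± 0.16 (adjusted p = 0.153; -0.81 with spike-in scaling).

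By the calls of both steps, 5 genes were higher with IL4 and higher again with emodin: Ddit3, Cebpb, Ppp1r15a, Shmt2 and Slc3a2. Another 8 were higher with IL4 and then lower with emodin: Trib3, Atf5, Phgdh, Psat1, Aldh18a1, Slc7a5, Slc6a9 and Slc1a5. Of these 8, Trib3 was still above control (-0.38 with spike-in scaling), Aldh18a1 and Slc1a5 were below it, and the other 5 were not called against it. The second Slc7a5 probe was above control by 0.90 ± 0.13 (adjusted p = 6.28e-05 in the limma fit over all kept probes). A further 6 were higher with IL4 and not called with emodin, 3 were called higher only with emodin (Cebpg, Ddit4 and Shmt1) and 4 were called lower only with emodin (Psph, Mthfd1l, Slc7a11 and Slc38a2). Asns, Eif4ebp1 and Vldlr were called in neither step. With spike-in scaling, the emodin difference turned negative for Ddit3, Cebpb, Shmt2, Slc3a2, Cebpg and Shmt1, while Ddit4 and Ppp1r15a stayed higher. These patterns were not counted over all genes, of which 39.4% were called higher and 26.5% lower in the emodin step. The 2 steps share the IL4 arrays, so an IL4 array that reads high adds to a rise and to the fall after it.

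The promoter windows printed above can be set beside these calls. Of the 9 genes with a core, 8 were tested: 5 were called higher with IL4 (Atf3, Chac1, Nupr1, Slc1a4 and Trib3), and with emodin 0 were higher and 2 lower (Slc7a11 and Trib3). Of the 19 genes whose windows lack these letters, 18 were tested: 12 were called higher with IL4, and with emodin 8 were higher and 8 lower. Of all genes tested, 8.98% were called higher with IL4. With emodin and IL4 against IL4, 39.4% of all genes were called higher and 26.5% lower. The counts by core are a description and were not tested.

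The other genes of the pathway were read from a list of 69, of which 61 were tested. With IL4, 8 (13.1%) were called higher and 3 (4.92%) lower. With emodin and IL4 against IL4, 24 (39.3%) were higher and 21 (34.4%) lower, where 39.4% and 26.5% of all genes were. Against control 25 (41.0%) were higher and 14 (23.0%) lower, where 37.3% and 25.6% of all genes were. With spike-in scaling, 3 of the 61 were higher and 51 lower than with IL4, beside 727 higher and 16853 lower of all 20862 genes. The share called higher with IL4 was thus nearer to the 8.98% of all genes than to that of the 29 genes. Both lists were chosen with earlier results of these data known, so this contrast is a description.

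The kinases that phosphorylate eIF2 came first in this list. Eif2ak2 encodes PKR, which senses double-stranded RNA, and it was lower with emodin than with IL4 by 5.01-fold (-2.33 ± 0.07, adjusted p = 7.22e-10), from 0.32 ± 0.04 to -2.01 ± 0.08 (SD, n = 4). Eif2ak3 encodes PERK, the kinase of the endoplasmic reticulum, and it was lower by a smaller amount (-0.36 ± 0.10, adjusted p = 0.00960). Eif2ak4 encodes GCN2, which senses uncharged tRNA. It was lower with IL4 (-0.44 ± 0.11, adjusted p = 0.0163) and higher with emodin than with IL4 (0.67 ± 0.11, adjusted p = 0.000219; -0.41 with spike-in scaling). Eif2ak1 encodes HRI, the heme-regulated kinase, and it was higher with emodin by 0.23 ± 0.08 (adjusted p = 0.0324; -0.86 with spike-in scaling), a call lost without IL4 array 1, 2 or 3 or emodin array 2 or 3 (adjusted p up to 0.0929). Of 8 eIF2 and eIF2B subunit genes, 0 were called with IL4, and 4 were higher and 2 lower with emodin, where 39.4% and 26.5% of all genes were. With spike-in scaling, 0 of the 8 were higher and 8 lower, beside 727 higher and 16853 lower of all 20862 genes.

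Among other genes known as ATF4 targets, Gdf15, a secreted stress hormone, was 20.2-fold higher with emodin than with IL4 (4.33 ± 0.15, adjusted p = 1.49e-09; 3.25 with spike-in scaling) after a fall with IL4 (-0.82 ± 0.15, adjusted p = 0.00271). Sesn2, a leucine-sensing inhibitor of mTORC1, rose with IL4 by 0.67 ± 0.15 (adjusted p = 0.00776) and was higher with emodin by 1.02 ± 0.15 (adjusted p = 7.67e-05; -0.06 with spike-in scaling). Its relative Sesn3 was not called with IL4 (-0.57 ± 0.23, adjusted p = 0.114, but 0.0472 without control array 1) and was higher with emodin by 1.98 ± 0.23 (adjusted p = 1.23e-05; 0.90 with spike-in scaling). Gpt2, a mitochondrial alanine aminotransferase, rose with IL4 by 0.82 ± 0.16 (adjusted p = 0.00416) and was lower with emodin (-1.88 ± 0.16, adjusted p = 1.20e-06). Ero1a, an oxidase of protein folding, rose with IL4 by 0.42 ± 0.10 (adjusted p = 0.0129). Cebpa, a C/EBP factor of myeloid cells, was listed with the cofactors and not with the ATF4 targets. It rose with IL4 by 0.89 ± 0.11 (adjusted p = 0.000118) and was 5.88-fold lower with emodin (-2.56 ± 0.11, adjusted p = 4.51e-09).

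Other transporters held the largest IL4 rise of the list. Slc7a2, a carrier of arginine and lysine, rose 31.2-fold with IL4 (4.96 ± 0.24, adjusted p = 7.51e-08) and was 3.08-fold lower with emodin (-1.62 ± 0.24, adjusted p = 9.24e-05). Its relative Slc7a1 rose by 0.78 ± 0.17 (adjusted p = 0.00733) and was lower with emodin (-0.67 ± 0.17, adjusted p = 0.00421), and Slc7a3, dim throughout and above background on 3 of 4 control arrays, was higher with emodin by 1.41 ± 0.19 (adjusted p = 3.61e-05; 0.33 and not called with spike-in scaling). Slc38a9, a lysosomal arginine sensor, rose with IL4 by 0.65 ± 0.11 (adjusted p = 0.00166) and was lower with emodin (-1.36 ± 0.11, adjusted p = 8.23e-07). Slc36a4, a proton-coupled amino acid carrier, was higher with emodin by 1.36 ± 0.08 (adjusted p = 7.79e-08; 0.28 with spike-in scaling). Slc36a1 fell with IL4 by 0.46 ± 0.08 on the probe used (adjusted p = 0.00192), but the mean of its probes gave 0.18, so its probes disagreed.

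Mat2a, which makes the methyl donor S-adenosylmethionine, was 4.73-fold lower with emodin than with IL4 (-2.24 ± 0.07, adjusted p = 6.82e-10). Prodh, which starts proline breakdown, was lower by 2.71-fold (-1.44 ± 0.15, adjusted p = 6.55e-06).

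Female and male arrays were compared over 2 arrays of each sex per group. Female arrays lay in slide columns 1 and 2 and male arrays in columns 3 and 4, so sex and slide column cannot be told apart. The difference between the sexes in the IL4 response was called for 0% of all genes and for 0 of the 29, in the emodin response for 0% and 0, and in level over all groups for 0% and 0. At an unadjusted p below 0.05 in the limma fit, 272, 507 and 1931 of all genes and 0, 3 and 4 of the 29 passed in these 3 comparisons. With so few arrays per sex, this does not show that the sexes responded alike.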

How the data were processed

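Each of 12 one-colour arrays came with a scanner file, in which Agilent Feature Extraction 10.7.3.1 had written background-subtracted spot intensity per the file headers. The series also had a deposited table of log2 values. That table matched quantile-scaled scanner values centred on each probe's median (correlation 1.00 on every array) and served as an alternative.

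Values were log2 intensity minus each array's 75th percentile. Outlier spots were left out and spots of a probe averaged. Of 55681 probes, 27509 matched a RefSeq symbol through their transcript (RefSeq of GRCm38.p6, used only for names and promoter windows) and 27705 were kept, which meant that all 4 arrays of some group were well above background. Each gene was read from its kept probe with the highest mean, which gave 20862 genes. Of the 31 genes described, 10 had more than 1 probe. No probe of these was saturated on any array.

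The 3 group means were estimated from the 12 arrays in limma 3.58.1 (R 4.3.3; 9 residual degrees of freedom) and compared by two-sided tests with Benjamini-Hochberg adjustment over all genes. Sexes were compared in a fit with a mean for each sex and group. Array measures were compared with exact permutation tests. The fits were tested on simulated data. The members, the gene lists and the rule for named genes were chosen with earlier results of these data known. That rule gives every array for members with a called difference of at least 1 (log2) and no overlap, and names the kinases and up to 10 other pathway genes per comparison; a few items are not reported here. Atf4 was added for its place in the pathway.

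Replicate numbers may pair control with IL4 arrays, whose same-numbered deviations correlated at 0.524, 0.311, 0.334 and 0.437. The main fit used no block. The number was also the column of the slide, and the labels do not say what it marks. Across genes, correlations within a group were 0.991 to 0.997. The number of arrays limits the precision. The alternatives were other scalings, background corrections, filters, probe rules, blocks and leaving out each array. Fitting every probe separately was added after seeing the data. Figures came from matplotlib 3.10.9 in Python 3.11.15.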

Additional observations from a re-analysis of the deposited data

Results flagged for a closer look

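On 1 emodin array, replicate 3, Cebpb read 6.37, apart from the other 3 arrays of the group at 6.61 to 6.65. Without that array, the difference between emodin with IL4 and IL4 kept its direction and its call. On 1 control array, replicate 4, Chac1 read 2.24, apart from 2.84 to 2.86 on the other 3. Chac1 was called higher with IL4 without that array too. These 2 stood out among 87 groups of 4 arrays looked at, where chance alone marks about 1 in 20.

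For Nupr1, emodin with IL4 minus IL4 was -0.14 over the female arrays and 0.35 over the male arrays. Sex and slide column cannot be told apart here. Every female emodin array lay below both female IL4 arrays and every male emodin array above both male IL4 arrays, and the female response minus the male response was -0.49 on the log2 scale. The signs depend on the scaling: with spike-in scaling the responses were -1.07 and -0.88, both falls. The difference between the sexes was not called in the limma fit (adjusted p = 1.00).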

How the results depend on the processing

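Precision is set by 4 arrays per group, and emodin is confounded with the slide. Spike-in scaling rests on 7 probes. Leaving out any 1 array changed no count of calls by over 1.5 times. For the 29 genes over 23 alternatives, 1889 of the single-gene values kept their call or lack of one, 51 lost the call and 25 gained one. Another 30 turned sign with a call in the main fit or in the alternative. For the other named genes 10 did so. A value that turned sign but was called in neither fit was counted as kept. With spike-in scaling, emodin with IL4 against IL4 called 2 genes higher and 25 lower (median -1.12), and against control 3 higher and 16 lower (median -0.39, a reversal). Of all 20862 genes, that scaling called 727 higher and 16853 lower against IL4, and 862 higher and 15795 lower against control. With quantile scaling the medians were -0.29 and 0.068, and with the deposited value table -0.29 and 0.065. The cause of these shifts was not tested.

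A gene is listed here as reversed where its sign turned and it was called in the main fit or in the alternative. For emodin with IL4 against IL4, the reversed genes were Atf4 (-0.58) and Cebpb (-0.070) with quantile scaling. With the deposited table they were Atf4 (-0.58) and Cebpb (-0.076). With spike-in scaling they were Atf4 -0.98, Cebpb -0.80, Cebpg -0.31, Ddit3 -0.43, Eif4ebp1 -0.79, Mthfd2 -0.78, Nupr1 -0.98, Shmt1 -0.28, Shmt2 -0.64, Slc1a4 -0.81, Slc3a2 -0.39, Eif2ak1 -0.86, Eif2ak4 -0.41, Sesn2 -0.062 and Slc36a1 -0.47. Against control, with spike-in scaling, they were Asns -0.68, Atf4 -0.29, Cebpb -0.050, Cebpg -0.39, Chac1 -0.14, Eif4ebp1 -0.85, Mthfd2 -0.031, Nupr1 -0.10, Psat1 -0.84, Shmt1 -0.025, Shmt2 -0.11, Slc1a4 -0.18, Slc6a9 -0.93, Trib3 -0.38, Eif2ak1 -0.72, Eif2ak4 -0.73, Ero1a -0.55, Slc36a1 -0.81 and Slc7a1 -0.85. With the mean of a gene's probes, Slc7a5 against control was 0.37 and Slc36a1 with IL4 was 0.18. Turns of sign that were called in neither fit are not listed. Among them, for emodin with IL4 against IL4, were Eif4ebp1 (-0.03) and Nupr1 (-0.02) with quantile scaling and Vldlr (-0.77) with spike-in scaling.

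With the replicate block, 19 genes were called higher with IL4 (Asns gained, Slc1a4 lost), and no other call of IL4 against control changed among the 29 genes. For emodin, same-numbered pairs correlated at 0.0934 to 0.437 with IL4 arrays and 0.0559 to 0.515 with control arrays. Number 2 gave the lowest value in both, and whether the number pairs emodin arrays was not settled. The replicate block there gave 9 higher (Eif4ebp1 gained) and 12 lower against IL4. Against control it gave 16 higher (Asns gained) and 6 lower. Over all genes the block also called more. With IL4 it called 2645 higher and 2657 lower, where the main fit called 1873 and 1786. For emodin with IL4 against IL4 it called 9004 higher and 6092 lower (main fit 8212 and 5538), and against control 8618 and 5897 (main fit 7780 and 5345). Of 12 arrays, 11 correlated best with their own number.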
